A study of Mus musculus with 12 samples.

Results

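Malat1, Neat1, Meg3, Rian, Mirg, Snhg11, Gas5 and Miat are 8 long noncoding RNAs known for abundance in nuclei or in neural tissue. They were taken from a table of read counts by matching Ensembl gene identifiers to these symbols, without use of their values, and all 8 had a row among the 46078 genes listed and passed the filter on low counts, which left 15866 genes. The table came from ventrolateral white matter of the spinal cord of C57Bl6 mice, cut from stained cryosections by laser and sequenced after amplification of the RNA. There were 4 groups: young naive, middle-aged naive, young injured and middle-aged injured. Injured tissue was collected 72 h after an injection of lysolecithin, a detergent-like lipid that destroys myelin, and naive tissue came from mice with no lesion. The methods of the study give 6 weeks as the age of young and 8 months as that of middle-aged mice, whereas the labels give only the words. Each group had 3 pools of 5 mice, so the pool is the replicate and single mice were not measured.

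Long noncoding RNAs are transcribed and often spliced and polyadenylated like messenger RNAs but act as RNA. Malat1 lies in nuclear speckles, which hold splicing factors, and Neat1 is the RNA around which paraspeckles are built, nuclear bodies that hold back certain proteins and transcripts. Meg3, Rian and Mirg are read from the maternal copy of the imprinted Dlk1-Dio3 domain and carry small nucleolar RNAs or microRNAs. Gas5 and Snhg11 are hosts of small nucleolar RNAs, and Gas5 transcripts are degraded when translation is active. Miat, also called Gomafu, is a nuclear RNA of neurons that binds splicing factors through a repeated word.

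Malat1 (ENSMUSG00000092341, chr19:5795690-5802672, minus strand) and Neat1 (ENSMUSG00000092274, chr19:5824708-5845478, minus strand) were neighbours in GRCm38, with 22035 bases between them. Neither ends in an ordinary poly(A) tail in its full form. Both instead end in a triple helix that is freed by the enzyme that matures transfer RNAs. The last 400 bases of their longest transcripts shared 3 words of at least 11 bases in the same order, which are shown in capitals because they hold the U-rich and A-rich runs of that helix. The Malat1 stretch is chr19:5795982-5796075 and the Neat1 stretch is chr19:5824708-5824807, both read on the minus strand from GENCODE transcripts of GRCm38.
Malat1: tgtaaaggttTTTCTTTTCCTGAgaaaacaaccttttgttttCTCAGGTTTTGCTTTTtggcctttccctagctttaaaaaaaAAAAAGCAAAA
Neat1 long transcript: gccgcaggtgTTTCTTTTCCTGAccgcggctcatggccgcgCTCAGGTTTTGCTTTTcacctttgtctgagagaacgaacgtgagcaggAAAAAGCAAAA
All 3 words stood together in the last 400 bases of 2 of 43368 genes (0.00461%), these 2. Singly, in those windows and on the transcript strand, the first word was found in 3 genes, the second in 2 and the third in 65.

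Neat1 also has a short transcript of 3004 bases that ends at an ordinary poly(A) site, inside the long transcript of 20771 bases. Its last 60 bases, chr19:5842307-5842366 on the minus strand, are shown with the AATAAA signal in capitals.
Neat1 short transcript: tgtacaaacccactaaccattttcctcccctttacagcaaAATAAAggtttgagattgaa
The short form covers 15.3% of the exons of the gene, and 1 count per gene was deposited, so both forms are read together here.

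Miat (ENSMUSG00000097767, chr5:112213228-112229395, minus strand) is shown by the densest run of its repeat, chr5:112216754-112216810 on the minus strand, with TACTAAC in capitals, the word that also stands at the branch point of yeast introns.
Miat: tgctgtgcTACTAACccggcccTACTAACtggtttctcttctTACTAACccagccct
The longest Miat transcript held 6 copies of TACTAAC on its own strand, and 2 of 19565 genes with a transcript of at least 2000 bases held as many (0.0102%), whereas 9.72% held any. Among the other members, Neat1 held 1 copy and the rest had none in their longest transcript.

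Meg3 (ENSMUSG00000021268, chr12:109541001-109571726), Rian (ENSMUSG00000097451, chr12:109603940-109661716) and Mirg (ENSMUSG00000097391, chr12:109729764-109749460) followed each other on the plus strand within 208460 bases. Exons of Mirg held 4 microRNA hairpins whole, and the 7 mature sequences RefSeq gives for them on GRCm38.p6 are shown with the seed, bases 2 to 8, in capitals, since no pair of them shared a seed.
miR-134-5p: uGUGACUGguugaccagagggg
miR-134-3p: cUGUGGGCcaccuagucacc
miR-485-3p: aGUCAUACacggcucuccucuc
miR-377-5p: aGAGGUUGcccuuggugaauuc
miR-377-3p: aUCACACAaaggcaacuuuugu
miR-410-5p: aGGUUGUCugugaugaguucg
miR-410-3p: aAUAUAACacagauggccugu
The rows of these hairpins were at 0 in all 12 pools. Of 55 rows of small RNA genes that lie within the 8 members, 50 were at 0 in every pool and the highest count was 2, so the small RNAs themselves were not measured by these libraries, and what follows concerns the host RNAs. Snhg11 (ENSMUSG00000044349, chr2:158375638-158386145, plus strand) is classed as protein coding by the annotation, unlike the other 7, and Gas5 (ENSMUSG00000053332) lies at chr1:161034422-161038539 on the plus strand.

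Totals ran from 9834447 to 12807437 counts per pool, and 3 counts, taken as the floor of detection, correspond to 0.234 to 0.305 CPM, the usual unit of counts relative to the total of a library, here scaled with edgeR's TMM factors. The 8 oligodendrocyte markers summed to between 53600 and 104000 CPM in naive and between 8310 and 21300 CPM in injured pools, while the 7 markers of microglia and macrophages went from 95.6 to 192 CPM in naive pools to 1490 to 2050 CPM in injured pools. Oligodendrocyte markers were also lower in middle-aged than in young naive pools, with 5 of 8 passing the test. Of 3 neutrophil markers, S100a8 and Retnlg were at 0 in every naive pool, and S100a9 reached 0.192 CPM in a middle-aged naive pool. Retnlg had at most 1 count in any pool, naive or injured. In bulk tissue, fewer cells of a type and less RNA per cell cannot be told apart.

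By these counts the word abundant held for some of these RNAs only, and where in the cell the RNAs lay was not measured. The labels call the libraries mRNA, and how well they captured RNAs without an ordinary poly(A) tail was not tested. Over all pools, Neat1 averaged 116 CPM, with 9.76% of the 15866 genes tested above it, Malat1 70.0 CPM with 17.6% above it, and Rian 57.4 CPM with 21.4% above it. Meg3 averaged 21.1 CPM, Snhg11 16.0 CPM and Gas5 10.3 CPM, and 43.3%, 49.6% and 59.1% of genes lay above them. Miat averaged 2.46 CPM, with 81.6% of genes above it, and Mirg 0.644 CPM, with 97.8% above it. Among 1270 genes of long noncoding classes, Neat1 ranked 17, Malat1 35 and Rian 47. Together the 8 RNAs took a mean of 0.0264% ± 0.00441 (SD, n = 3) of counts in young naive pools and 0.0409% ± 0.00657 in middle-aged naive pools. In injured pools the share was 0.0238% ± 0.00336 in young and 0.0255% ± 0.00676 in middle-aged mice. The share of mitochondrially encoded genes in the same totals was 10.5% to 13.2%, 14.8% to 16.0%, 8.17% to 10.8% and 8.12% to 13.1% in the same order of groups, and its part in the share of the 8 RNAs was not tested.

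Levels of different genes were compared per kilobase of merged exons, which allows for length but not for capture. Malat1 had the highest mean in every group, from 8.42 CPM per kb in middle-aged injured to 11.5 CPM per kb in middle-aged naive pools. In young naive pools it was followed by Rian (4.69 ± 1.52 CPM per kb), Neat1 (2.75 ± 0.871), Snhg11 (2.34 ± 0.683), Gas5 (2.29 ± 0.446) and Meg3 (1.42 ± 0.631), and the means of Neat1, Snhg11 and Gas5 lay within an SD of each other, whereas the steps from Rian to Neat1 and from Gas5 to Meg3 were larger. In middle-aged naive pools Neat1 was second, at 9.70 ± 1.22 CPM per kb against 11.5 ± 2.58 CPM per kb for Malat1. Miat, at 0.366 ± 0.183 CPM per kb, and Mirg, at 0.0799 ± 0.0240, were the lowest there, as in the other groups. Because the counts of both Neat1 forms are divided by the length of the long one, a level per kb understates the short form.

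**Figure D1:**
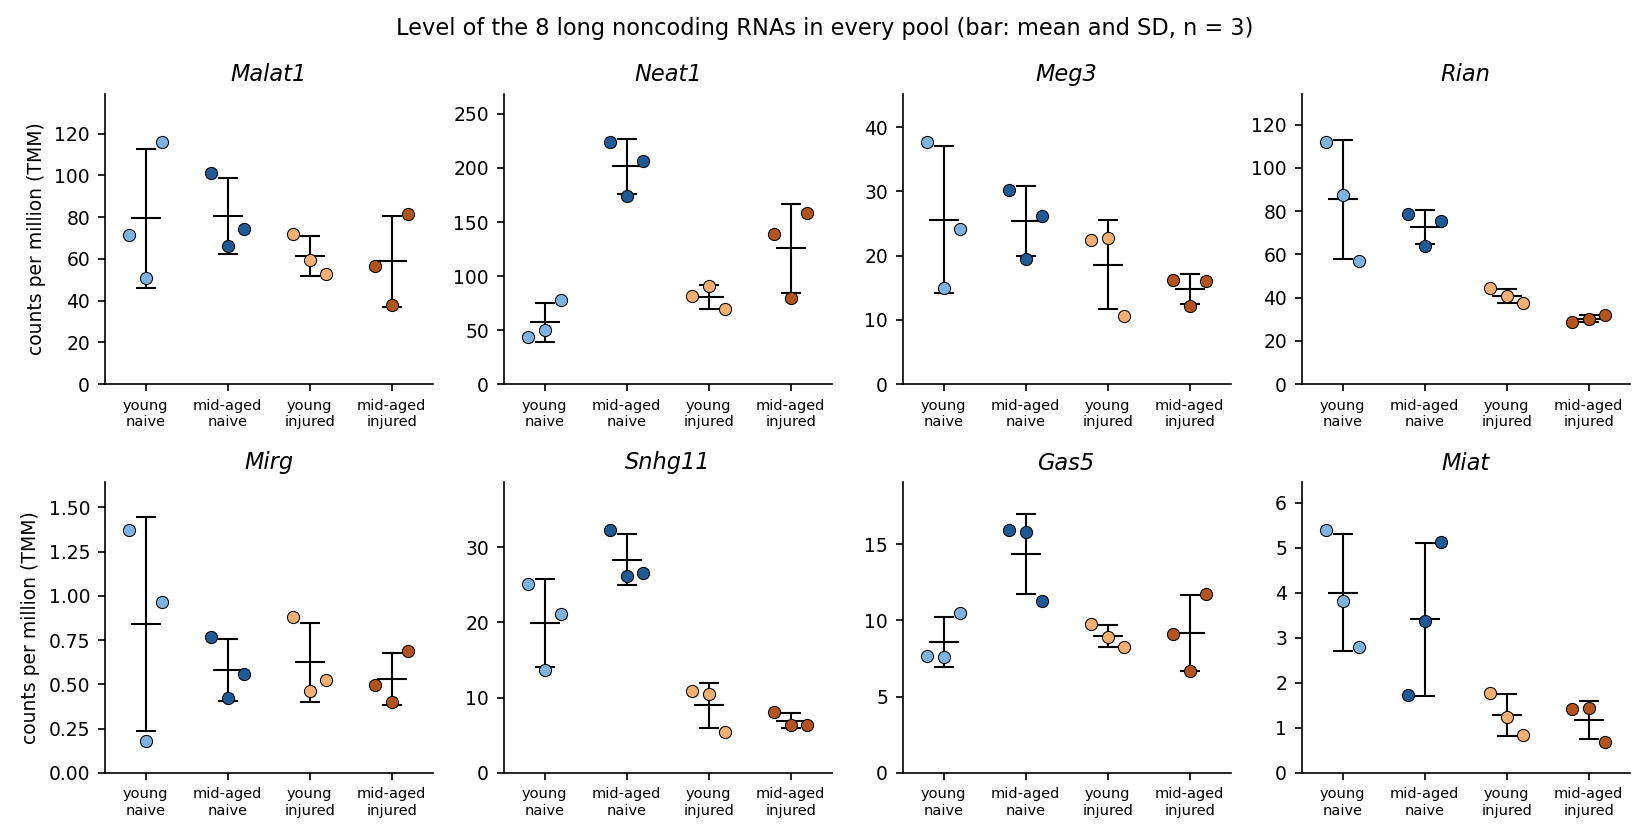
Level in CPM (TMM scaled, linear axis from 0) of each of the 8 long noncoding RNAs in every pool, with 1 point per pool, and the mean and SD of 3 pools as black bars. The middle-aged naive pools of Neat1 (174 to 224 CPM) lie above all other pools, and the injured pools of Rian, Snhg11 and Miat lie below the naive pools of their age.

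The plot of levels by pool shows each member on its own axis. Its values are described below by the role of the RNA, first the pair of nuclear body RNAs, then the imprinted domain, the hosts of small nucleolar RNAs and Miat.

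The first question was whether these RNAs differed with age in the absence of a lesion. Neat1, the scaffold of paraspeckles, was the only member that passed the test between naive groups. Its level was 43.3, 50.6 and 77.6 CPM in young naive pools and 224, 174 and 206 CPM in middle-aged naive pools. Even the lowest middle-aged pool was above the highest young one. The difference was 1.82 ± 0.25 (SE) on the log2 scale, or 3.53-fold, with an adjusted p of 0.00128 by edgeR's quasi-likelihood test (Benjamini-Hochberg over all 15866 genes). A share of 2.11% of the genes tested had a higher log2 fold change. Over all genes, 3.80% passed this test in either direction and 2.02% were higher, against 1 of the 8 RNAs. An exact permutation test of 3 pools against 3 gave p = 0.1, the smallest it can give. The call of Neat1 held in every alternative run, with log2 fold changes from 1.65 to 2.10.

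Malat1, the neighbour of Neat1, was nearly equal at both ages in naive tissue. It stood at 71.4, 50.9 and 116 CPM in young and at 101, 66.1 and 74.5 CPM in middle-aged naive pools, which overlapped. The log2 difference was 0.02, with a 95% interval from -0.61 to 0.64, so these pools leave room for a change of either sign (adjusted p = 0.990, edgeR).

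The remaining members did not pass the test between naive groups. Gas5 stood at 7.65, 7.61 and 10.5 CPM in young and at 15.9, 15.8 and 11.3 CPM in middle-aged naive pools, a log2 difference of 0.74 ± 0.24 with an unadjusted p of 0.00748 in edgeR's fit and an adjusted p of 0.107. Snhg11 was at 25.1, 13.6 and 21.1 CPM in young and 32.2, 26.2 and 26.5 CPM in middle-aged naive pools, a log2 difference of 0.51 ± 0.26 (adjusted p = 0.327, edgeR). The pools of Gas5 and Snhg11 did not overlap between the ages, so that with Neat1 the groups were separate for 3 members, where 17.1% of all genes had separate groups. For Meg3, Rian, Mirg and Miat the naive groups overlapped, and their log2 differences ran from -0.51 for Mirg to -0.01 for Meg3.

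Values of other genes moved with age in the same naive pools. The 7 microglia and macrophage markers summed to 95.6 to 133 CPM in young and 145 to 192 CPM in middle-aged naive pools, and 5 of 7 passed the test as higher. The share of the mitochondrial ribosomal RNA mt-Rnr2 was 9.90% to 12.4% and 13.9% to 15.4%, respectively. The part of either in the level of Neat1 was not tested. The call of Neat1 held when TMM factors were taken without mitochondrial genes and members. That run changed the scaling of libraries alone and did not test the part of microglial or mitochondrial RNA.

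The second question was how the RNAs differed between lesion and naive tissue at each age. In young mice 3 of the 8 RNAs passed the test, Rian, Snhg11 and Miat, all of them lower in the lesion, whereas 54.6% of all genes passed in either direction and 26.3% were lower. The same 3 were lower in middle-aged mice together with Neat1 and Gas5, making 5 of 8, against 58.5% of all genes in either direction and 29.3% lower. As shares of the members these are 37.5% and 62.5%. They are under the share of all genes in either direction in young mice and near it in middle-aged mice. At both ages they are above the share of all genes that were lower, and no set test was run on the 8. The median log2 fold change of the 8 was -0.44 in young and -0.73 in middle-aged lesions, beside 0.000542 and -0.0322 over all genes tested. Over the 1270 genes of long noncoding classes the medians were -0.248 and -0.355, and 40.8% and 48.4% of them passed.

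**Figure D2:**
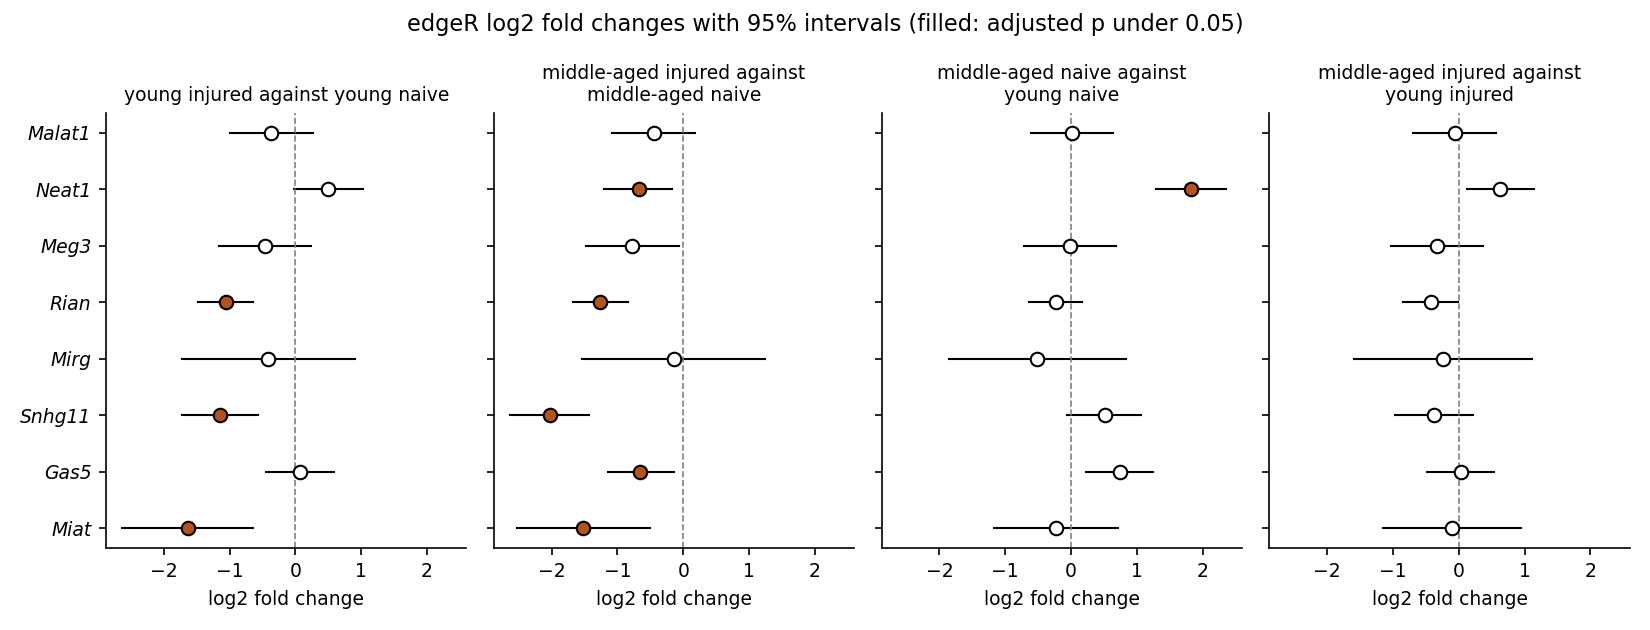
Log2 fold changes of the 8 RNAs (rows) in 4 comparisons (panels), from edgeR's fit of all 12 pools, with 95% intervals as lines. Filled points passed at an adjusted p under 0.05. The points of Rian, Snhg11 and Miat are filled and left of 0 in both lesion comparisons, and Neat1 alone is filled in the comparison of naive groups, at 1.82.

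The plot of fold changes sets the members' intervals side by side. Mirg has the widest in all 4 panels, and its counts per pool were 2 to 15.

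Rian, a host of small nucleolar RNAs and microRNAs in the imprinted domain, had the smallest standard errors of the members. It stood at 112, 87.4 and 56.9 CPM in young naive, 78.5, 64.0 and 75.6 CPM in middle-aged naive, 44.3, 40.8 and 37.7 CPM in young injured and 28.9, 30.2 and 31.9 CPM in middle-aged injured pools. No injured pool reached the lowest naive pool of its age. The fall was -1.06 ± 0.19 on the log2 scale in young mice (2.09-fold lower, adjusted p = 0.000304, edgeR) and -1.26 ± 0.20 in middle-aged mice (2.40-fold lower, adjusted p = 6.64e-05, edgeR). Between the injured groups the pools were separate as well, with the middle-aged pools lower by a log2 difference of -0.43 ± 0.19, which did not pass over all genes (adjusted p = 0.487, edgeR). When only the 6 injured pools entered the fit it did pass, at an adjusted p of 0.0342 (edgeR), a fit in which 818 genes passed in place of 182.

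Meg3, the first RNA of the same domain, varied more. It was at 37.7, 15.0 and 24.1 CPM in young naive and 22.5, 22.7 and 10.6 CPM in young injured pools, which overlapped, and the log2 fold change was -0.46 ± 0.32 (adjusted p = 0.248, edgeR). In middle-aged mice it was at 30.3, 19.5 and 26.2 CPM in naive and 16.3, 12.2 and 16.0 CPM in injured pools. These did not overlap, and the log2 fold change of -0.78 ± 0.33 was just short of the threshold (adjusted p = 0.0551, edgeR). It passed in 8 of 21 alternatives, among them the one that blocks on replicate number (adjusted p = 0.0384, edgeR). In the other 13 it did not pass, with the highest adjusted p, 0.163 (edgeR), when replicate 2 of the middle-aged injured group was left out.

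Mirg, the host of the microRNAs printed above, was near the floor of detection, at 0.181 to 1.37 CPM in young naive pools and 0.399 to 0.881 CPM over the injured pools. Its log2 fold change with the lesion was -0.41 in young (95% interval -1.72 to 0.90) and -0.14 in middle-aged mice (-1.54 to 1.25). Both intervals include 0 and the change of Rian, so neither could be told at this depth.

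Counts of Rian per count of Meg3 were 2.36 to 5.81 in young naive, 2.59 to 3.28 in middle-aged naive, 1.80 to 3.55 in young injured and 1.78 to 2.47 in middle-aged injured pools. The ratio was lower in every middle-aged injured than in every middle-aged naive pool, while the ranges of the young groups overlapped. Of the other genes of the domain, 4 were tested and 2 fell at both ages by edgeR, where 26.3% and 29.3% of all genes were lower. DESeq2 called 1 of the 4 at each age. Begain, a gene of the synapse, went from a mean of 26.7 to 5.36 CPM in young mice (log2 fold change -2.32, adjusted p = 1.49e-06, edgeR) and from 18.5 to 4.67 CPM in middle-aged mice (-1.98, adjusted p = 6.7e-06, edgeR). Rtl1, a paternally expressed gene that is read opposite to microRNAs of the maternal copy, went from 1.33 to 0.399 CPM and from 1.81 to 0.553 CPM (adjusted p = 0.0449 and 0.0381, edgeR). Its counts were low, 2 to 32 per pool. Dlk1, a paternally expressed inhibitor of differentiation, had log2 fold changes of 0.77 and 0.65 and did not pass, nor did Wdr25 at -0.67 and -0.64. The median of the 4 was -1.19 in young and -1.16 in middle-aged mice.

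Snhg11, a host of small nucleolar RNAs that neurons express, had the largest fold among members in middle-aged mice. It went from 25.1, 13.6 and 21.1 CPM in young naive to 10.9, 10.5 and 5.42 CPM in young injured pools. In middle-aged mice it went from 32.2, 26.2 and 26.5 CPM to 8.05, 6.31 and 6.39 CPM. At both ages the groups were separate, and the gap was wider in middle-aged mice. The log2 fold changes were -1.15 ± 0.27 in young (2.22-fold lower, adjusted p = 0.00236, edgeR) and -2.03 ± 0.28 in middle-aged mice (4.09-fold lower, adjusted p = 2.10e-05, edgeR). The difference of these effects was -0.88 ± 0.38, with an unadjusted p of 0.0369 in edgeR's fit and an adjusted p of 0.461, so it did not pass over all genes.

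Gas5, the host of small nucleolar RNAs whose RNA is unstable during translation, showed no such separation. It was at 9.76, 8.91 and 8.28 CPM in young injured pools, inside the range of the young naive pools given above, and the log2 fold change was 0.07 (95% interval -0.44 to 0.58). In middle-aged injured pools it was at 9.13, 6.71 and 11.7 CPM, of which the last lay within the naive range. The log2 fold change was -0.65 ± 0.23 (1.56-fold lower, adjusted p = 0.0287, edgeR). This call was lost when any of 4 pools was left out, namely replicate 1 or 2 of the middle-aged naive or of the middle-aged injured group, with adjusted p from 0.0624 to 0.130 (edgeR), when libraries were scaled by totals alone (0.0623) and when only the pools compared were fitted (0.0649).

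Other hosts of small nucleolar RNAs went both ways, where 54.6% of all genes passed in young and 58.5% in middle-aged mice. Of 15 tested, 4 rose (Snhg5, Zfas1, Rack1 and Ncl) and 2 fell (Snhg14 and Eif4a2) in young mice, and 3 rose (Snhg3, Rack1 and Ncl) and the same 2 fell in middle-aged mice, with medians of 0.53 and 0.44. Rack1, a protein of the small ribosomal subunit, rose by 1.69 and 1.68 on the log2 scale, whereas Eif4a2, a helicase of translation initiation, fell by 0.79 and 0.74. Snhg14, the imprinted host next to Ube3a, fell from 56.4 to 29.2 CPM in young and from 44.0 to 29.3 CPM in middle-aged mice (adjusted p = 0.00242 and 0.0360, edgeR). Snhg15 had a mean of 0.836 CPM or less in every group and log2 fold changes of 1.18 and 2.11 that did not pass. Of the 10 factors of nonsense-mediated decay, the route by which Gas5 RNA is degraded, 1 rose and 1 fell in young mice. Smg1, the kinase of that route, rose by 1.36 in young and 1.31 in middle-aged mice on the log2 scale, and Smg5 fell in young mice by 0.61 (adjusted p = 0.0319, edgeR).

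Miat had low counts, 8 to 64 per pool, but a large fold. It stood at 5.38, 3.81 and 2.80 CPM in young naive and 1.76, 1.24 and 0.828 CPM in young injured pools. In middle-aged mice it was at 1.73, 3.36 and 5.12 CPM in naive and 1.41, 1.44 and 0.691 CPM in injured pools. The groups were separate at both ages, in middle-aged mice by the narrow gap between 1.73 and 1.44 CPM. The log2 fold changes were -1.64 ± 0.46 (3.11-fold lower, adjusted p = 0.00792, edgeR) and -1.52 ± 0.47 (2.87-fold lower, adjusted p = 0.0125, edgeR). In middle-aged mice the call was lost without replicate 3 of the naive group (log2 fold change -1.09, adjusted p = 0.0762, edgeR) and without replicate 3 of the injured group (-1.25, adjusted p = 0.0556, edgeR). An antisense gene, Gm26953, shares 24.3% of the exon bases of Miat but had at most 2 counts in a pool.

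Rian, Snhg11 and Miat moved beside several lists of cell markers, among them a list of 10 neuronal markers. That list summed to 1800 to 4490 CPM in young naive and 2730 to 3640 CPM in middle-aged naive pools, against 718 to 961 and 834 to 922 CPM in the injured pools, and 7 of the 10 fell at each age, with medians of -1.30 and -1.64. Slc17a6, the vesicular glutamate transporter of many spinal neurons, went the other way in middle-aged mice, where it rose by 1.52 on the log2 scale (adjusted p = 0.00918, edgeR), and the log2 fold changes of Gad2 and Gad1 there were 1.45 and 0.46 and did not pass. None of the 10 was at 0 in a group. The neuronal list, Rian and Snhg11 had their widest spread in young naive pools, and Miat in middle-aged naive pools (SD 1.7 against 1.3 CPM in young naive). Within the young naive group, Rian was lowest in replicate 3 (56.9 CPM) and Snhg11 in replicate 2 (13.6 CPM). Markers of other cells fell too, with all 8 of oligodendrocytes lower at both ages (medians -2.1 and -2.39). Of 6 astrocyte markers, 5 were lower at each age (medians -1.3 and -1.42). Over all genes, 26.3% were lower in young and 29.3% in middle-aged mice. The part of RNA from any of these cells in the levels of Rian, Snhg11 and Miat was not tested.

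Neat1 had lesion values of opposite sign at the 2 ages. In young mice it was at 43.3, 50.6 and 77.6 CPM in naive and 81.4, 91.1 and 69.7 CPM in injured pools, which overlapped, and the log2 fold change was 0.50 ± 0.24 (95% interval -0.02 to 1.02, adjusted p = 0.0947, edgeR). It passed without replicate 3 of the young naive group (0.79, adjusted p = 0.0149, edgeR), without replicate 2 of the middle-aged injured group, with totals alone and with no filter. In middle-aged mice it went from 224, 174 and 206 CPM to 139, 79.6 and 158 CPM, without overlap. There the fall was -0.68 ± 0.24 (1.61-fold lower, adjusted p = 0.0233, edgeR). Without replicate 2 of the middle-aged injured group, the pool at 79.6 CPM, it was -0.45 and did not pass (adjusted p = 0.104, edgeR). It did not pass either without replicate 1 (-0.60, 0.0687) or replicate 3 (-0.67, 0.0519) of the middle-aged naive group, or with libraries scaled by totals alone (-0.58, 0.0526). With Meg3, Rian, Snhg11 and Miat it made 5 members with separate middle-aged groups, where 61.1% of all genes had them, and in young mice 3 members were separate, against 67.2% of all genes.

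Between the injured groups Neat1 was higher in middle-aged mice by a log2 difference of 0.63 ± 0.24, with overlapping pools and an adjusted p of 0.325 (edgeR). The number of members that passed between injured groups was 0 in edgeR's test and 0 in DESeq2's, with 2 of 8, Neat1 and Rian, at an unadjusted p under 0.05 in edgeR. Over all genes 1.15% passed. Rian was the 1 member with separate injured groups, where 23.3% of all genes had them.

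The difference of the injury effects between the ages was tested directly. For Neat1 it was -1.18 ± 0.34 on the log2 scale (95% interval -1.91 to -0.46), with an unadjusted p of 0.00356 in edgeR's fit and an adjusted p of 0.202. Of all genes, 0.139% passed this test, and of the 8 RNAs 0 passed by edgeR and 0 by DESeq2, with Neat1 and Snhg11 at an unadjusted p under 0.05 in edgeR. Gas5 had a difference of -0.71 (95% interval -1.43 to 0.00) and the other members lay between -0.31 and 0.27. With no filter on low counts Neat1 passed, at an adjusted p of 0.00261 (edgeR), in a fit that called 329 genes in place of 22.

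Malat1 did not pass with the lesion at either age. It was at 71.9, 59.6 and 52.7 CPM in young injured and 56.7, 38.1 and 81.7 CPM in middle-aged injured pools, overlapping the naive pools at both ages. The log2 fold changes were -0.37 (95% interval -1.0 to 0.26) and -0.45 (-1.08 to 0.18), so a fall by a factor of 2 was close to the edge of the intervals and a rise of that size was outside them.

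Counts of Neat1 per count of Malat1 compare the pair without any scaling between libraries, a ratio chosen after the values were seen. It was 0.606, 0.993 and 0.669 in young naive, 2.23, 2.63 and 2.76 in middle-aged naive, 1.13, 1.53 and 1.32 in young injured and 2.45, 2.09 and 1.93 in middle-aged injured pools. Every middle-aged pool, naive or injured, stood above every young pool, and the young injured pools stood between the young naive and the middle-aged pools.

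**Figure D3:**
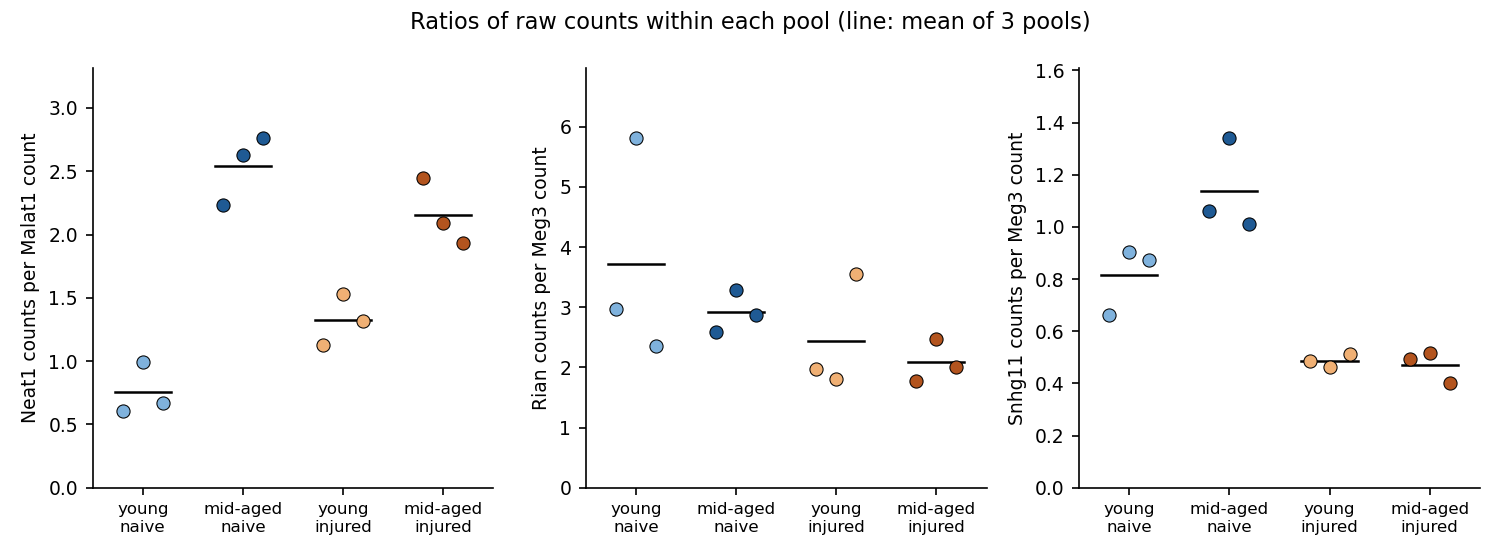
Ratios of raw counts of pairs of these RNAs within each pool (vertical axes, counts per count, from 0), with 1 point per pool and the mean of 3 pools as a line. Neat1 per Malat1 lies below 1 in all 3 young naive pools and at 1.93 or higher in all 6 middle-aged pools, and Snhg11 per Meg3 lies between 0.400 and 0.516 in the injured pools and at 0.664 or higher in the naive pools.

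The plot of ratios also shows Snhg11 per Meg3, which was 0.664 to 0.904 in young naive, 1.01 to 1.34 in middle-aged naive, 0.464 to 0.511 in young injured and 0.400 to 0.516 in middle-aged injured pools. The injured groups overlapped each other and lay under both naive groups. Neither this ratio nor that of Rian to Meg3 was planned. Snhg11 had the more negative lesion value of its pair at both ages, so its ratio to Meg3 restates values given above.

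Genes of proteins that work with Neat1 and Malat1 were examined in the same fit, as RNA, since protein was not measured. Of 12 genes of paraspeckle proteins, 5 rose and 1 fell in young mice, and 6 rose and 1 fell in middle-aged mice. Their median log2 fold changes were 0.35 and 0.40. Those counts were near the share of all genes that passed in either direction, 54.6% in young and 58.5% in middle-aged mice. Nono rose by 0.99 and 0.51 on the log2 scale and Sfpq by 0.87 and 0.70, and both encode RNA-binding proteins needed to build paraspeckles. Hnrnph3, whose protein is also part of them, fell in middle-aged mice by 1.02 (adjusted p = 0.000353, edgeR). Matr3, a protein of the nuclear matrix, fell in young mice by 0.27 (adjusted p = 0.0469, edgeR). Between naive groups, where Neat1 differed, 0 of the 12 passed by edgeR and 1 by DESeq2, with 3 at an unadjusted p under 0.05 in edgeR, and Nono stood at 69.2 CPM in young and 101 CPM in middle-aged pools (adjusted p = 0.126, edgeR).

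Of 13 tested genes of nuclear speckle and splicing proteins, 8 rose and 1 fell in young mice. In middle-aged mice 9 rose and 1 fell, and the median was 0.50 at both ages. Over all genes, 54.6% passed in either direction in young and 58.5% in middle-aged mice. These too are changes of RNA. Srsf2, a splicing factor that marks speckles, rose by 1.05 and 1.21 on the log2 scale, and Srsf7, another of that family, by 0.78 and 1.14. Qk, a splicing regulator of oligodendrocytes, fell by 0.73 and 0.71. Of 6 genes for the maturation and stability of the printed 3′ ends, 1 rose and 2 fell in young mice, and 1 rose and 0 fell in middle-aged mice. Pop1, at 10 to 78 counts per pool, rose by 1.85 and 1.53, and it encodes a protein of the enzyme that cuts them. Pop5, of the same enzyme, fell in young mice by 0.80 and Mettl16, which binds the triple helix of Malat1, by 0.31, both at an adjusted p under the threshold (0.0234 and 0.0375, edgeR). Neither passed in middle-aged mice (adjusted p = 0.152 and 0.229, edgeR).

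A list of other long noncoding RNAs gives the setting for the members, beside 54.6% of all genes that passed in young and 58.5% in middle-aged mice. Of 21 tested, 4 rose (H19, Dleu2, Pvt1 and Mir22hg) and 6 fell in young mice, and the same 4 rose and 9 fell in middle-aged mice, with medians of -0.15 and -0.38. Sox2ot, which overlaps the neural transcription factor gene Sox2, went from 179 to 40.1 CPM in young and from 181 to 33.4 CPM in middle-aged mice, larger folds than those of any member (log2 fold changes -2.16 and -2.44, adjusted p = 1.37e-06 and 4.03e-07, edgeR). Pantr1 fell by 1.33 and 2.03 on the log2 scale. Pvt1, next to the Myc gene, rose by 1.23 and 1.34. H19, an imprinted fetal RNA, rose from a mean of 0.884 to 14.6 CPM in young mice. In middle-aged mice it was at 0 in every naive pool and at a mean of 2.36 CPM in the injured pools. It was the 1 RNA of that list that differed between naive groups and between injured groups, lower in middle-aged mice in both.

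**Figure D4:**
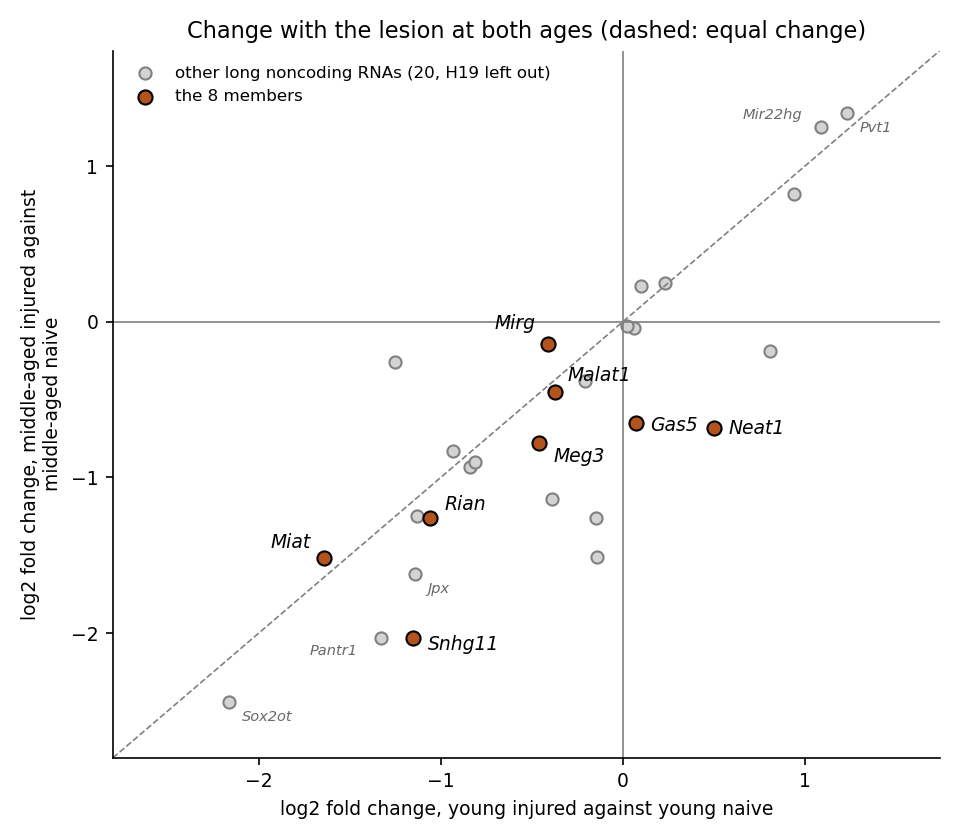
Log2 fold change with the lesion in young (horizontal) and middle-aged mice (vertical) for the 8 members (filled) and 20 other long noncoding RNAs (grey), with a dashed line where both are equal. H19 is left out because it was at 0 in the middle-aged naive pools. Neat1 (0.50 and -0.68) and Gas5 (0.07 and -0.65) lie at lower right, and Rian, Miat and Snhg11 at lower left.

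In the plot of both ages the members lie at or below 0 on the vertical axis, all 8 with a negative log2 fold change in middle-aged mice, of which 5 passed. The other RNAs that rose at both ages, such as Pvt1 and Mir22hg, stand at the upper right, where no member does.

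The genes with the pattern most like each member were sought by Pearson's r of log2 CPM over the 12 pools, among 9729 genes with a mean log2 CPM of at least 3. The pools share 4 groups and their scaling, so r describes likeness across groups. Nearest to Neat1 were Kmt2e (r = 0.920), the splicing factor gene Srsf5 (0.918) and the complement gene C4b (0.906), which had means of 49.3, 154, 67.2 and 69.0 CPM in young naive, middle-aged naive, young injured and middle-aged injured pools. Nearest to Malat1 were Mdm4 (0.920), Pabpn1 (0.917) and Luc7l3 (0.890). Nearest to Rian were Chn1 (0.989), Hrasls (0.987) and Fgf12 (0.985), the highest values among the members. Snhg11 was closest to Pex7 (0.945), B930095G15Rik (0.942) and Art3 (0.942), Miat to Crtac1 (0.946), Drosha (0.943) and Ciapin1 (0.943), and Gas5 to Bptf (0.927), Nbeal1 (0.910) and Nr2c1 (0.908). Genes close to Meg3 included Gm38194 (0.827) and Snhg11 (0.820), and Mirg, at its low counts, was closest to Zfp280d (0.842), Nek1 (0.814) and Lcor (0.776).

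Among the members themselves the same measure was highest for Rian with Snhg11 (0.846), Rian with Miat (0.840), Meg3 with Snhg11 (0.820) and Neat1 with Gas5 (0.809). It was 0.350 for the neighbours Malat1 and Neat1, 0.684 for Meg3 with Rian and 0.201 for Rian with Mirg. Neat1 had the lowest values, -0.158 with Miat and -0.154 with Rian.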

How the data were processed

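The authors laser-captured the tissue, kept RNA with an integrity number over 8, amplified it with REPLI-g and sequenced it on a NextSeq500. Reads were checked with FastQC 0.11.4 and aligned to GRCm38 by TopHat 2.0.10, which ran bowtie 1.1.2. The authors deposited raw counts per gene from featureCounts. The annotation release, strand setting and handling of shared reads are not given in the sources used here. An antisense gene shares exon bases with Malat1 (6.49%), Meg3 (6.79%) and Miat (24.3%), and 2.20% (Neat1) to 26.9% (Miat) of a member's 31-base words also occur in other genes.

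Counts were fitted in R 4.3.3 with edgeR 4.0.16 (TMM, filterByExpr, glmQLFit, glmQLFTest), with 1 coefficient for each of the 4 groups and all 12 pools. Tests were adjusted by Benjamini-Hochberg over 15866 genes, with a threshold of 0.05. The standard error is the log2 fold change over the square root of F, and log2 CPM used a prior count of 2. Permutation tests were exact and two-sided. Of 46078 identifiers, 45229 (98.2%) had a symbol and position in GENCODE's annotation of GRCm38. The edgeR fit was tested on simulated data. Each pool counted as a replicate, as the labels give them, and no pair of pools of 1 group agreed within counting noise (chi-square per degree of freedom 7.48 to 35.7), which in amplified RNA does not tell repeat libraries from separate ones.

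The members, the lists and the tests were chosen with earlier results of these data known. Named genes are the members, the extremes of each related list by mean lesion effect (at most 2 at either end), any gene of the imprinted domain and paraspeckle lists, and the 3 nearest patterns of each member. Mettl16, Snhg3, Snhg5, Zfas1, Ncl, Dleu2 and Mir22hg fall outside this rule and were chosen after their values were seen. Results for 2 further genes are not reported here. Alternatives were DESeq2 1.42.0, other scalings and filters, the replicate block, only the pools compared and each pool left out. RNA was amplified, so reads are not independent molecules, the floor covers counting error only, and p-values measure the spread between pools.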

Additional observations from a re-analysis of the deposited data

How the results depend on the processing

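The calls of Neat1 between naive groups and of Rian and Snhg11 with the lesion at both ages held in every alternative run. Of 822 log2 fold changes under alternatives, 759 kept direction and side of the threshold, 12 lost a call, 15 gained one and 36 changed sign, none of the last called either way. The cause of each was not tested. The 8 members' levels moved by less than an SD under other scalings.

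Members called with the lesion in middle-aged mice numbered 3 with library totals alone and 3 to 6 with a pool left out, the 3 arising without replicate 1 or 3 of the middle-aged naive or replicate 2 of the middle-aged injured group. Between injured groups the number was 1 with no filter (Neat1) and 1 with only the pools compared (Rian), and for the difference of the injury effects 1 with no filter (Neat1). As a share of counts without mitochondrially encoded genes, the sum of the 8 RNAs in middle-aged naive pools was 0.0482%.

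Sign changes with all pools were those of Meg3 between naive groups, at 0.02 with library totals alone and 0.03 with the replicate block, and of Gas5 between injured groups, at -0.03 with library totals alone. With a pool left out, log2 fold changes that crossed 0 in young lesions ran from -0.61 to 0.0079 for Malat1, -0.89 to 0.16 for Mirg and -0.01 to 0.24 for Gas5. In middle-aged lesions those of Mirg ran from -0.37 to 0.09. Between naive groups the ranges were -0.22 to 0.39 for Malat1, -0.29 to 0.38 for Meg3, -0.46 to 0.0081 for Rian, -0.99 to 0.06 for Mirg and -0.66 to 0.09 for Miat. Between injured groups they were -0.36 to 0.18 for Malat1, -0.46 to 0.09 for Mirg, -0.17 to 0.21 for Gas5 and -0.33 to 0.20 for Miat. For the difference of the injury effects they were -0.45 to 0.16 for Malat1, -0.44 to 0.03 for Rian, -0.30 to 0.75 for Mirg and -0.20 to 0.55 for Miat.

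The replicate numbers did not pair the pools, since the deviations of same-numbered pools correlated at -0.113 to 0.153 in 18 pairs. With the number as a block, 3 members were called in young lesions, 6 in middle-aged lesions (Meg3 added), 1 between naive groups and 0 in the other 2 tests.

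Over all genes, 603 were called between naive groups, 1085 by DESeq2, 1153 with no filter, 71 with only the pools compared and 261 to 800 with a pool left out. Between injured groups 182 were called, against 446, 437, 818 and 45 to 410. The difference of the injury effects called 22, against 240 by DESeq2, 329 with no filter and 3 to 56 with a pool left out. Mirg, at 2 to 15 counts, and Miat, at 8 to 64, are limited by depth.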
